A study of Mus musculus with 2 samples.

Results

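Divergent bidirectional coding promoters are stretches of DNA that lie between the 5′ ends of 2 protein-coding genes transcribed away from each other. The peaks described here were the DNase-seq peaks found in both libraries whose midpoint lay between such 5′ ends or within 500 bp of either, for genes whose 5′ ends were at most 1 kb apart. The 5′ ends were those of GENCODE M21 genes, a peak counted as shared when a replicate 1 peak overlapped a replicate 2 peak by at least 1 bp, and no signal value entered the choice. They numbered 897 of 50856 shared peaks (1.76%).

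DNase-seq maps open chromatin: DNase I cuts accessible DNA, clusters of cuts are called as peaks, while stretches within a peak that bound proteins shield from the enzyme appear as footprints. The tissue was the left cerebral cortex of 2 female mice, 10 days old, of the strain B6CASTF1/J, the first-generation cross of C57BL/6J with the wild-derived CAST/EiJ. No gene was altered and no agent was given, per the labels, so the 2 libraries form 1 group. The labels number the animals and the biological replicates separately but give both the same donor identifier. With 1 group of 2 libraries no test over samples could be made, so all comparisons below are descriptions, and regions are not replicates.

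In mammals, many housekeeping genes are arranged head to head and share a promoter from which both are transcribed. Such promoters are typically rich in CpG dinucleotides, mostly lack a TATA box, and are known for binding sites of factors such as NRF1, GABP of the ETS family, NFY, SP1 and YY1. The genes they serve often act in DNA repair, mitochondrial function, RNA processing and protein synthesis.

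The sequences below are examples of such promoters. Each is the reference DNA between the 5′ ends of the pair named, the minus-strand gene first, on GRCm38.p6 (mm10), so the animals' CAST/EiJ copy may differ from it. Capitals mark matches, on either strand, to the 16 consensus motifs searched that overlapped a footprint in both libraries. The first 3 belong to a strong peak, to a peak with many footprints and to a weak one, and were taken by the rule for named pairs.

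Aamp/Pnkd, chr1:74284739-74284929, plus strand: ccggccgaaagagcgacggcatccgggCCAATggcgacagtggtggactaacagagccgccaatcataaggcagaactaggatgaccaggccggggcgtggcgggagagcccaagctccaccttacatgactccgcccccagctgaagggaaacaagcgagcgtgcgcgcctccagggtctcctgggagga
Mob3a/Izumo4, chr10:80701978-80702183, plus strand: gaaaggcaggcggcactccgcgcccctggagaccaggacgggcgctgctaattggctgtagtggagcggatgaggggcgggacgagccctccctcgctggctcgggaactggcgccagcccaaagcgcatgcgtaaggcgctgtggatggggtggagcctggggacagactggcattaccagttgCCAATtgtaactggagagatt
Lrrc63/Lcp1, chr14:75130882-75131100, plus strand: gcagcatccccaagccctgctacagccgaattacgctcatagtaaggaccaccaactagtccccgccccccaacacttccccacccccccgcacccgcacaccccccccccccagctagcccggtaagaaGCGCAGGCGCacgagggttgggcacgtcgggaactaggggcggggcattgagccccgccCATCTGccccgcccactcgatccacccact

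Another 5 were chosen after their values were seen, for holding several different footprinted motifs. Their capitals include CCAAT boxes (NFY), TGACGTCA (CREB and ATF factors), GGGGCGGGG (SP and KLF factors), CCGGAAG (ETS), CACGTG (the E-box of USF and MYC) and the NRF1 motif, each in the orientation in which it was found.

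Zcchc17/Snrnp40, chr4:130359944-130360131, plus strand: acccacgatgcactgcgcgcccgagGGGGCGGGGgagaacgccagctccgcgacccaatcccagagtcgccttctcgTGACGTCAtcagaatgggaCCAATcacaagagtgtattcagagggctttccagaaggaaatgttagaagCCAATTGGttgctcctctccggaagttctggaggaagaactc
Glyr1/Ubn1, chr16:5049864-5050056, plus strand: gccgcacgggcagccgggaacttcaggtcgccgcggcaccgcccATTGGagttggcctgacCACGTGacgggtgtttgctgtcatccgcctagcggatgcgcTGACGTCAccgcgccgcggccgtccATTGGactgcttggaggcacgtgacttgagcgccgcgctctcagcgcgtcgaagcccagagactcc
Xab2/Pet100, chr8:3621317-3621547, plus strand: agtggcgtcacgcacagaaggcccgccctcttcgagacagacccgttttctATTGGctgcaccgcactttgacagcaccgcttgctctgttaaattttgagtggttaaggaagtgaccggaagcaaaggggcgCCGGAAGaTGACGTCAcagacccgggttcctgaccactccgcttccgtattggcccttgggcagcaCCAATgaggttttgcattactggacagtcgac
Hmmr/Nudcd2, chr11:40733423-40733666, plus strand: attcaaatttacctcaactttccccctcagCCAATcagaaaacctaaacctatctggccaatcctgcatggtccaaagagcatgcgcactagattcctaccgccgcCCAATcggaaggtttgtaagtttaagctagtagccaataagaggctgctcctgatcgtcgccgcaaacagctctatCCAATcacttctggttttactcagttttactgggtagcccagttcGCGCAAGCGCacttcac
Rpl36al/Mgat2, chr12:69184084-69184156, plus strand: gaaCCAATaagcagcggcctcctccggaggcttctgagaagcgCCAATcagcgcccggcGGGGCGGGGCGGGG

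The sequences differ in how many of their motif matches overlapped a footprint in both libraries. In Aamp/Pnkd, 1 of 2 CCAAT boxes overlapped a footprint in both libraries. In Lrrc63/Lcp1, whose strongest peak reached only 0.470 in replicate 1 and 0.811 in replicate 2, an NRF1 match and a proneural E-box match were footprinted. Zcchc17/Snrnp40, whose strongest peak reached 7.13 and 10.1, held 5 footprinted matches to 3 motifs.

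The depth of both libraries could be judged only from the deposited signals. The deposited signal of a peak came in whole steps of 0.00692 in replicate 1 and 0.00758 in replicate 2. On the unstated assumption that 1 step is 1 cut per 1 M (mega) tags, depths were 145 M and 132 M tags. The median divergent promoter peak then rested on 413 steps in replicate 1 and 549 in replicate 2, against 134 and 158 for all shared peaks. As a check of the tissue label, 7 of 8 pan-neuronal marker genes had a shared peak within 500 bp of any annotated transcript start (all but Rbfox3). So had 3 of 8 cortical excitatory, 1 of 6 interneuron, 3 of 6 astrocyte, 3 of 6 oligodendrocyte, 2 of 6 microglia, 2 of 6 endothelial and mural and 1 of 4 red blood cell markers, while 0 of 6 muscle markers and 0 of 6 markers of other brain regions had one. Among all protein-coding genes the share was 48.6%, counted at the single 5′ end of each gene, which is a stricter measure. Only the pan-neuronal list stood well above it, and the unlike measures limit that comparison. The cortical excitatory and interneuron lists fell below it.

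The annotation held 754 divergent coding pairs, made of 1487 of 21938 protein-coding genes (6.78%), with 21 genes in more than 1 pair. The median gap between the 5′ ends was 129.5 bp, with quartiles of 67 and 240 bp. Of the pairs, 693 had a shared peak (91.9%, 95% Wilson interval 89.7 to 93.7; Wilson intervals here cover counting error only), and these are called open pairs. Among open pairs, 494 had 1 such peak, 173 had 2, 23 had 3 and 3 had 4. The pairs with 4 were Cbx5/Hnrnpa1, Mrpl40/Hira and Fiz1/Gm44973, named after their values were seen. Of the 897 peaks, 24 belonged to 2 neighbouring pairs. The number of peaks depended on the definition of a pair: it was 1528 with the 5′ ends of all annotated coding transcripts and 1464 when pairs with overlapping 5′ ends were included.

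Genes of divergent pairs more often had open chromatin at their own 5′ end than other genes. A shared peak lay within 500 bp of the 5′ end of 1344 of the 1487 pair genes, which is 90.4%. The share was 75.6% for the 876 genes with only a noncoding gene on the other side, 44.2% for the 19575 genes with no divergent gene by the rule and 48.6% for all protein-coding genes. Head-to-head partners with overlapping 5′ ends did not count as divergent, so the 19575 genes can include them. Genes of a pair lie close together, so 1 peak can serve both. The pair genes were also richer in CpG, with a median observed over expected ratio of 0.775 within 500 bp of the 5′ end, against 0.512 for the other protein-coding genes. Within genes of similar CpG ratio, the share was 98.9% of 621 pair genes against 86.8% of 3848 others at a ratio of 0.8 or more. It was 94.9% of 629 against 78.2% of 4980 from 0.6 to 0.8, and 76.7% of 163 against 50.8% of 2912 from 0.4 to 0.6. Below 0.4 the Wilson intervals overlapped: 15.9% of 44 pair genes (7.93 to 29.4) against 13.7% of 3749 others (12.6 to 14.8) from 0.2 to 0.4, and 3.33% of 30 (0.591 to 16.7) against 1.85% of 4962 (1.51 to 2.27) below 0.2.

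The peaks of divergent pairs were strong. Their median signal was 2.86 in replicate 1 and 4.16 in replicate 2. It was 2.44 and 3.80 for the 768 peaks at a coding gene with a divergent noncoding gene, 1.90 and 2.80 for the 9707 peaks at all other coding starts (called one-directional below), and 0.927 and 1.20 for all shared peaks. The one-directional group was not cleared of head-to-head genes with overlapping 5′ ends, of which there were 457 coding pairs. The middle 50% of divergent pair peaks spanned 1.72 to 4.39 in replicate 1, against 1.03 to 3.25 for one-directional starts, so the groups overlapped widely. Among divergent pair peaks, 425 (47.4%) ranked in the top 10% of shared peaks in both libraries, against 29.6% of one-directional start peaks and 8.96% of all shared peaks. Widths were similar, with a median of 240 bp against 220 bp for one-directional starts and 200 bp for all shared peaks.

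**Figure D1:**
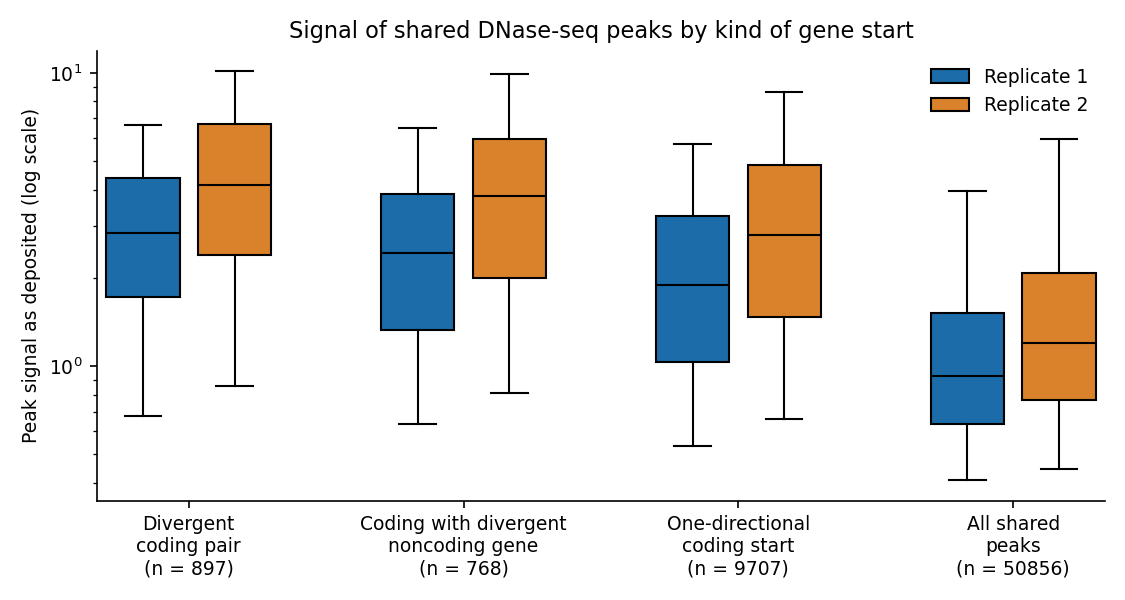
Signal of shared peaks on a log axis, by kind of gene start, in replicate 1 (blue) and replicate 2 (orange); boxes span the quartiles, lines mark the medians and whiskers reach the 5th and 95th percentiles. Divergent coding pair peaks have medians of 2.86 and 4.16, above the one-directional starts at 1.90 and 2.80, and the boxes overlap.

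The difference in signal from one-directional starts was also there among peaks of similar CpG content. In 300 bp windows around the peak midpoint, the median CpG ratio was 0.852 for divergent pair peaks, 0.866 with a divergent noncoding gene, 0.807 for one-directional starts and 0.361 for all shared peaks. At a ratio of 0.8 to 1, the 348 divergent pair peaks had median signals of 3.12 in replicate 1 and 4.58 in replicate 2, against 2.19 and 3.32 for the 3618 one-directional peaks. Below 0.6 they were 1.80 and 2.46 over 94 peaks, against 1.16 and 1.54 over 1737. Peaks with a divergent noncoding gene lay between these groups, with 2.67 and 4.08 at 0.8 to 1 and 1.25 and 1.76 below 0.6. From 0.6 to 0.8 they came close to divergent pair peaks, with 2.60 and 4.03 against 2.87 and 4.09. Across the 897 peaks, signal and CpG ratio correlated with r = 0.16 and rho = 0.16 (Pearson, Spearman), given as a description across regions that share libraries and base composition.

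The peak between Hjurp, a histone chaperone that places the centromeric histone CENP-A, and Trpm8, the cold-sensing ion channel, stood far above the rest. At chr1:88277521-88277760 its signal was 16.6 in replicate 1 and 24.8 in replicate 2, over a gap of 28 bp. The next was at Rita1/Ddx54, a Notch pathway regulator and a DEAD-box RNA helicase, with 7.83 and 15.5. It lay not between the ends but inside Ddx54 (chr5:120612861-120613120). Aamp/Pnkd had 7.62 and 14.4, and Tom1l2/Drc3 had 9.05 and 12.7. Pnkd is named for an inherited movement disorder, paroxysmal nonkinesigenic dyskinesia, and Drc3 is a part of the dynein regulatory complex of motile cilia.

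At the low end, the weakest peak lay at the zinc finger genes Zfp944/Zfp758, with 0.325 in replicate 1 and 0.402 in replicate 2. The next was at 1300017J02Rik/Topbp1, with the replication checkpoint gene Topbp1, at 0.367 and 0.364. That pair also had a stronger peak, of 1.91 and 2.97, so the weak one was a side peak. Side peaks also gave the low values of Lrrc63/Lcp1 (0.394 and 0.364) and Timm23/Parg (0.443 and 0.402), whose strongest peaks reached 0.470 and 0.811, and 1.54 and 2.10. Lcp1 encodes the leukocyte actin bundler L-plastin, Timm23 a channel of the inner mitochondrial membrane and Parg the enzyme that removes poly(ADP-ribose). Cenpj/Parp4 had only the weak peak, with 0.450 and 0.409; it held 4 footprints in replicate 1 and 0 in replicate 2.

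The libraries ranked the peaks alike, with replicate 2 higher nearly throughout. Across the 897 peaks the log2 signals had a Pearson correlation of 0.97, against 0.97 at one-directional starts and 0.95 over all shared peaks. Replicate 2 was higher at 872 (97.2%), near the 95.9% of one-directional starts and the 95.3% with a divergent noncoding gene. Over all shared peaks the share was 84.9%. The median log2 ratio of replicate 1 over replicate 2 was -0.55 (SD over peaks 0.26), against -0.55 at one-directional starts and -0.37 over all shared peaks. Counted in steps, without the authors' scaling, it was -0.42. Where a replicate 1 peak overlapped several replicate 2 peaks, the highest was taken, which favours replicate 2.

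Few peaks differed by more than 2-fold. With replicate 2 higher there were 25 (2.79%), near the 2.61% of all shared peaks and below the 4.49% of one-directional starts; with replicate 1 higher there were 0, where 0.0472% of all shared peaks were called. The widest gap was at Zbtb25/Zbtb1, a pair of BTB zinc finger factors, with 1.77 in replicate 1 and 4.62 in replicate 2. Dad1/Abhd4 had 3.54 and 8.66, and Dnajc2/Psmc2, a ribosome-associated chaperone and a proteasome ATPase, had 1.75 and 4.18. Hook3/Gm45692 had 2.64 and 6.11, and Itfg1/Phkb had 1.30 and 2.93. Replicate 1 was higher at 25 peaks, mostly weak ones, with a median signal of 0.989 in replicate 1 and 0.948 in replicate 2, and 14 of them had no footprint found in both libraries.

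**Figure D2:**
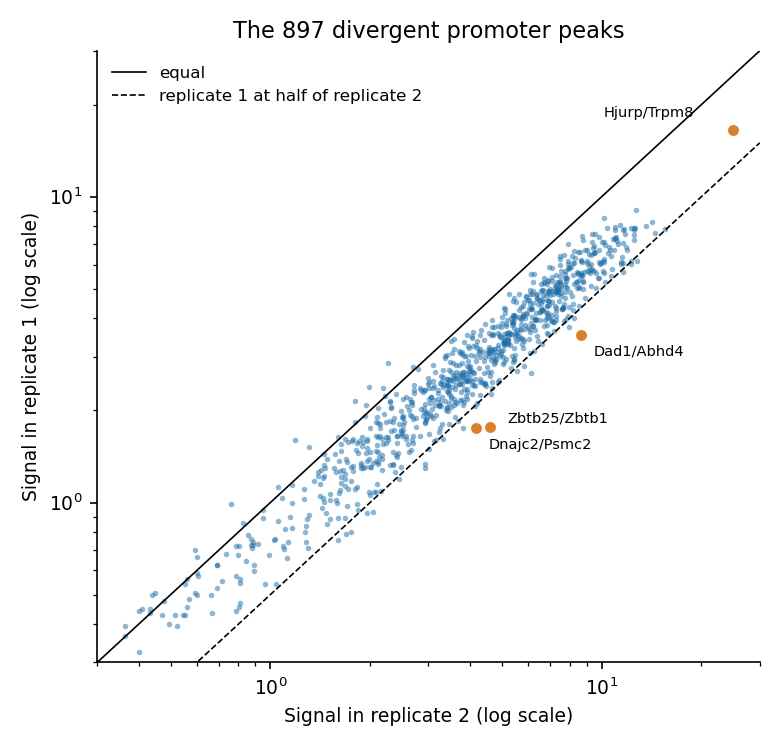
Signal of each of the 897 divergent promoter peaks in replicate 1 (vertical, log axis) against replicate 2 (horizontal, log axis), with named peaks in orange. Nearly all points lie below the line of equality and 25 lie below the dashed 2-fold line; Hjurp/Trpm8 is the point at 16.6 and 24.8.

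Peaks in these windows were also found in the other library more often than peaks at large. Of the 965 replicate 1 peaks there, 93.0% (91.2 to 94.4) overlapped a replicate 2 peak, against 84.7% of all replicate 1 peaks. Of the 1012 replicate 2 peaks there, 89.1% (87.1 to 90.9) overlapped a replicate 1 peak, against 72.1% of all. The 68 peaks seen in replicate 1 only were weak, with a median signal of 0.547, as were the 110 seen in replicate 2 only, at 0.682.

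More peaks had their midpoint between the gene ends than inside either gene. The midpoint lay between the 5′ ends at 519 peaks (57.9%), beyond the minus-strand end at 186 and beyond the plus-strand end at 192. The median signed distance from the middle of the gap was 1 bp. Peaks were chosen by this midpoint, in a window symmetric about the gap, so these positions are partly set by the rule. The median unsigned distance was 58.5 bp, and 42.5 bp when the window of 500 bp was cut to 250 bp. A single peak covered both 5′ ends in 421 cases (46.9%), 1 end in 271 and no end in 205. Taking the strongest peak of each pair (673 peaks, since some serve 2 pairs), 59.4% covered both ends, 67.6% had their midpoint between the ends, the median distance from the middle was 36.5 bp, and the median signal was 3.42 in replicate 1 and 5.12 in replicate 2. The other 224 peaks lay at a median of 329.75 bp, covered both ends in 9.38%, had their midpoint between the ends in 28.6%, and had median signals of 1.44 and 1.99.

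The DNA between the ends was open along its whole length in most pairs. Counting positions with a false discovery rate of at most 0.001 for their cut rate, all letters between the ends were open in 622 of 691 open pairs with a gap of 2 bp or more (90.0%) in replicate 1 and in 631 (91.3%) in replicate 2. For gaps of 401 to 1000 bp this held for only 32 and 35 of 75 pairs (42.7% and 46.7%). Footprints covered on average 28.8% of the letters between the ends in replicate 1 and 30.5% in replicate 2. In the first 100 bp of the genes they covered 14.4% on the minus side and 16.0% on the plus side in replicate 1, and 14.9% and 16.3% in replicate 2.

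Seen from each gene's 5′ end, open chromatin reached farther outward at divergent pairs. From 200 to 500 bp outside the gene, 60.9% of positions were open in replicate 1 and 63.1% in replicate 2, against 30.3% and 32.3% at one-directional starts. The same distance inside the gene had 35.4% and 38.0%, against 36.0% and 43.1%. Over 500 bp, the open share outside relative to inside was 1.34 in replicate 1 and 1.31 in replicate 2 at divergent pairs, against 0.971 and 0.904 at one-directional starts. By the rule, the partner's own 5′ end lies outside the gene within 1 kb. Over all pairs the median gap was 129.5 bp and the upper quartile 240 bp. Much of the stretch from 200 to 500 bp outside a gene was therefore inside its partner, and the same letters were counted for both genes. The partner's part in the difference was not tested. Footprints were most frequent just outside the 5′ end in both groups: 31.1% of gene ends in replicate 1 and 32.5% in replicate 2 at divergent pairs, against 22.7% and 24.8%.

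**Figure D3:**
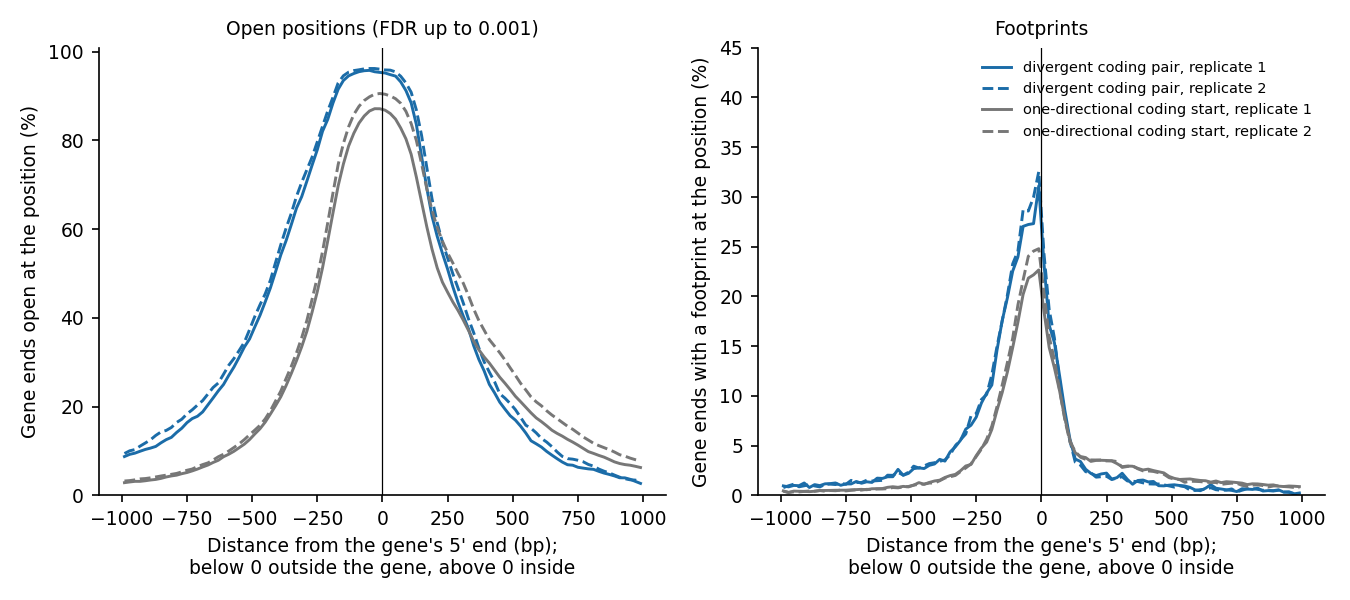
Share of gene ends that are open (left) or in a footprint (right) by distance from the 5′ end in bp, with positions outside the gene below 0, for genes of open divergent pairs (blue, n = 1366 gene ends) and one-directional genes with a shared peak (grey, n = 8656); solid lines are replicate 1 and dashed lines replicate 2. The divergent curves stay above the grey ones outside the gene (60.9% against 30.3% from 200 to 500 bp in replicate 1); inside the gene they start above the grey ones (95.2% against 86.8% at 10 bp in replicate 1) and end below them (17.9% against 23.8% at 490 bp).

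The gap between the ends went with the form of the open region. Pairs were open in 96.1% of cases at gaps of 1 to 50 bp (123 of 128) and in 82.4% at 401 to 1000 bp (75 of 91), with 91.3% to 93.8% between. Their strongest peak had a median signal of 2.86 in replicate 1 and 4.04 in replicate 2 at 1 to 50 bp, 3.87 and 5.78 at 101 to 200 bp, 4.10 and 6.12 at 201 to 400 bp, and 3.67 and 5.47 at 401 to 1000 bp. The share of open pairs with 2 or more peaks was 16.3% at the shortest gaps and 61.3% at the widest. The window searched for peaks was the gap plus 500 bp on each side, so wider gaps gave more room for several peaks by construction. The median CpG ratio of the pairs was 0.792 at 1 to 50 bp and 0.647 at 401 to 1000 bp. The parts of window width and CpG ratio in these differences were not tested. Over all 897 peaks, gap and signal correlated with r = -0.02 and rho = 0.05.

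**Figure D4:**
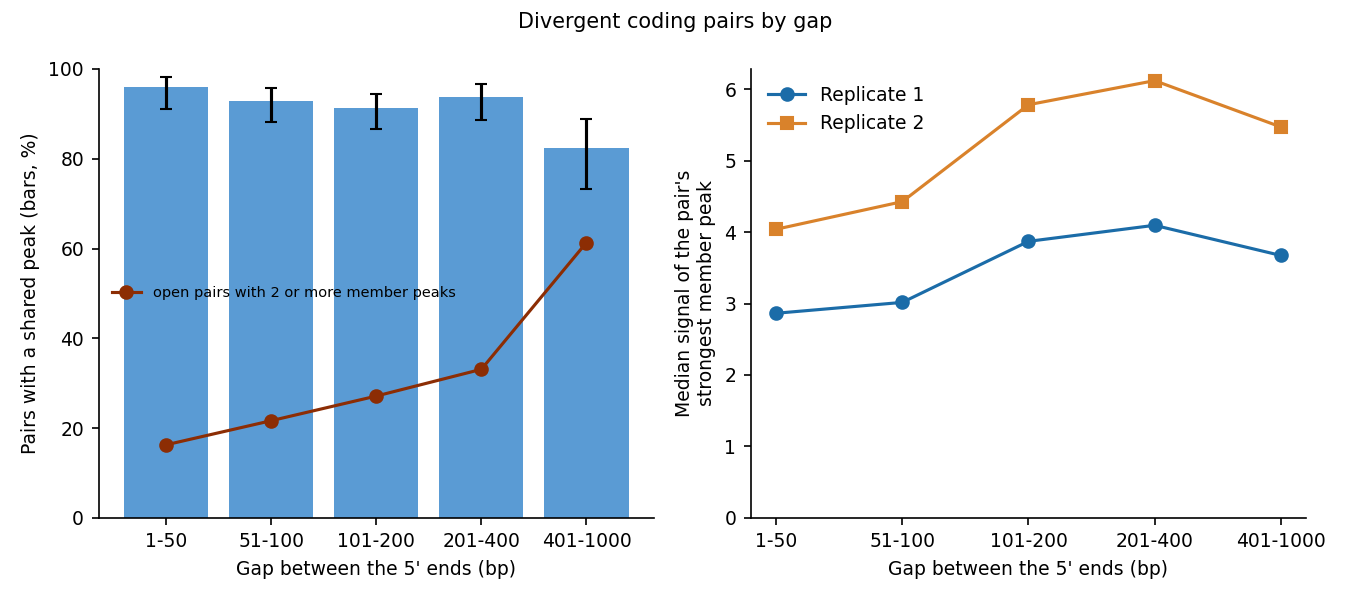
Divergent coding pairs by gap between the 5′ ends in bp. The window searched for peaks widens with the gap. Left, bars show the share of pairs with a shared peak with 95% Wilson intervals and points the share of open pairs with 2 or more peaks (16.3% to 61.3%); right, the median signal of the strongest peak, which is lowest at 1 to 50 bp in both libraries (2.86 and 4.04).

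The closest ends were those of Bag4/Lsm1 and Slc7a6os/Prmt7, at 1 bp. Lsm1 acts in mRNA decay and Prmt7 is an arginine methyltransferase. Bag4/Lsm1 had 3.33 in replicate 1 and 5.23 in replicate 2, and Slc7a6os/Prmt7 had 3.28 and 5.28. Dhrs1/Nop9 (3 bp), Bag5/Apopt1 (4 bp) and Wdr54/1700003E16Rik (7 bp) were weaker, from 1.43 to 1.90 in replicate 1 and from 2.17 to 2.69 in replicate 2. The widest gap within the limit was that of Btf3l4/Txndc12, at 987 bp, with 2.42 and 3.41. Asphd1/Sez6l2 (981 bp) had 1.38 and 2.17, Zfyve26/Rad51b (978 bp) had 4.34 and 5.07, and Smim7/Tmem38a (967 bp) had 5.02 and 7.25. Just past the limit, Gpr108/Trip10 at 1009 bp had 1.72 and 3.86, Sgsm2/Tsr1 at 1011 bp had 2.28 and 3.74, and Serpina7/4930513O06Rik at 1007 bp had no shared peak. At the 500 bp limit, the last midpoint inside, at Rbmxl1/Slc10a7, lay 497.5 bp beyond the end with signals of 0.574 and 0.606, and the first outside, at Acp1/Sh3yl1, lay at 502.5 bp with 0.719 and 0.682.

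Footprints were frequent. Divergent pair peaks held a mean of 4.14 footprints in replicate 1 and 4.10 in replicate 2, against 4.01 and 4.18 with a divergent noncoding gene, 3.64 and 3.72 at one-directional starts and 2.66 and 2.64 over all shared peaks. Of 3716 footprints in replicate 1, 2683 (72.2%) overlapped one of replicate 2, against 66.8% at one-directional starts and 58.6% over all shared peaks. At least 1 footprint found in both libraries was present in 773 peaks (86.2%, 83.8 to 88.3), against 85.9% (83.3 to 88.2) with a divergent noncoding gene, 83.6% (82.8 to 84.3) at one-directional starts and 76.7% (76.3 to 77.0) over all shared peaks. The 65 peaks with no footprint in either library were weak, with median signals of 0.664 in replicate 1 and 0.803 in replicate 2, against 3.22 and 4.86 for those with a footprint in both. Across the 897 peaks the number of footprints found in both libraries and the mean signal correlated with r = 0.66 and rho = 0.72, with cut depth shared by both measures.

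The most footprints found in both libraries, 12, were at Aldh6a1/Lin52, a mitochondrial dehydrogenase and a subunit of the DREAM cell cycle complex, in a peak of signal 5.70 in replicate 1 and 7.75 in replicate 2. Prkra/Pjvk, a kinase activator and the hearing gene pejvakin, had 10, with 3.55 and 5.34. Mphosph10/Mcee had 10 as well, with 2.46 and 3.25, below the median signal of all divergent pair peaks. Mob3a/Izumo4, whose sequence is printed above, had 9, with 5.65 and 8.50, and L3hypdh/Jkamp had 9, with 5.53 and 8.72.

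Motifs were searched in 300 bp around each peak midpoint, on both strands. The patterns were CCGGAAG for ETS, GGGGCGGGG for SP and KLF, CCAAT for NFY, TGACGTCA for CREB and ATF, CACGTG for the E-box of USF and MYC, TTTCCCGC for E2F, TATAAA for the TATA box, TGANTCA for AP-1, CAGATG for the proneural E-box, and consensus motifs of 10 or more letters for NRF1, YY1, ZNF143, RFX, CTCF, NFI and MEF2. Matches of different motifs seldom shared letters, with at most 2 overlaps for any combination of motifs. A match to at least 1 of them overlapped a footprint of both libraries in 51.5% of divergent pair peaks (48.2 to 54.8). The share was 43.9% with a divergent noncoding gene, 38.9% (37.9 to 39.9) at one-directional starts and 27.5% over all shared peaks. Footprints of 2 or more different motifs were found in 13.9%, against 8.99% at one-directional starts. A match is a run of letters, not proof of a bound factor.

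The NRF1, ETS, NFY, ZNF143 and YY1 motifs, all known from housekeeping promoters, were more frequent in footprints of divergent pair peaks than in those of one-directional starts. NRF1, a regulator of nuclear genes for mitochondria, was footprinted in 12.8% (10.8 to 15.2), against 7.85% (7.33 to 8.40) at one-directional starts. ETS was footprinted in 9.03% (7.33 to 11.1) against 5.30% (4.87 to 5.76), and NFY in 12.7% (10.7 to 15.0) against 8.75% (8.20 to 9.32). ZNF143 was footprinted in 2.90% (1.99 to 4.21) against 1.53% (1.31 to 1.80), and YY1 in 2.12% (1.36 to 3.28) against 0.999% (0.820 to 1.22). None of these intervals overlapped. At coding genes with a divergent noncoding gene the shares were 10.0% (8.10 to 12.4) for NRF1, 5.73% (4.30 to 7.60) for ETS, 13.2% (10.9 to 15.7) for NFY, 1.04% (0.529 to 2.04) for ZNF143 and 0.911% (0.442 to 1.87) for YY1. All of these intervals overlapped those of divergent coding pairs, and the NFY share was higher than theirs. The SP and KLF motif was the most frequent, at 16.1% (13.8 to 18.6) against 14.1% (13.4 to 14.8), and CREB and ATF reached 3.90% (2.82 to 5.38) against 3.08% (2.75 to 3.44), both with overlapping intervals.

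Matches regardless of footprints gave a similar picture for some motifs. NRF1 letters stood in 17.3% of windows at divergent pairs, 11.4% at one-directional starts and 3.56% of all shared peaks, and ETS letters in 27.1%, 18.3% and 6.42%. CCAAT stood in 43.9%, 37.8% and 34.7%. SP and KLF letters were no more frequent, at 20.1% against 21.9% at one-directional starts and 7.41% of all shared peaks. Once present, 75.6% of SP and KLF matches and 70.6% of NRF1 matches at divergent pairs overlapped a footprint of both libraries, against 28.8% of ETS and 20.7% of CCAAT matches. In windows with a CpG ratio of at least 0.6, an NRF1 footprint was found in 14.2% (11.95 to 16.8) of divergent pair peaks, against 9.13% (8.52 to 9.79).

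The CTCF motif and the proneural E-box, tied to distal elements and to neurons, were rarer than over all shared peaks. CTCF, the insulator protein, had a footprinted match in 1.11% (0.607 to 2.04) of divergent pair peaks, against 2.24% (1.96 to 2.55) at one-directional starts and 10.4% (10.1 to 10.7) of all shared peaks; the intervals of the promoter groups overlapped. The proneural E-box CAGATG stood in 8.81% of windows against 10.1% and 25.04%, and was footprinted in 1.56%, 0.999% and 4.06%. MEF2 letters stood in 3.57% of windows, between 2.49% at one-directional starts and 4.38% of all shared peaks. A footprinted MEF2 match was found in 0 of the 897, with an upper Wilson bound of 0.426%. The share was 0.361% (0.259 to 0.501) at one-directional starts and 0.651% (0.278 to 1.51) with a divergent noncoding gene. Over all shared peaks it was 0.470% (0.414 to 0.533). All of these intervals overlapped that of the 897, so the 0 does not set them apart. NFI letters were in 0 of 897 windows, an upper Wilson bound of 0.426%, and in only 0.112% of all shared peaks, so this does not set the group apart. TATAAA stood in 3.68% of windows, against 4.07% at one-directional starts and 11.2% of all shared peaks. It was footprinted in 1.11% (0.607 to 2.04), against 0.649% (0.508 to 0.829) and 0.342% (0.295 to 0.397).

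**Figure D5:**
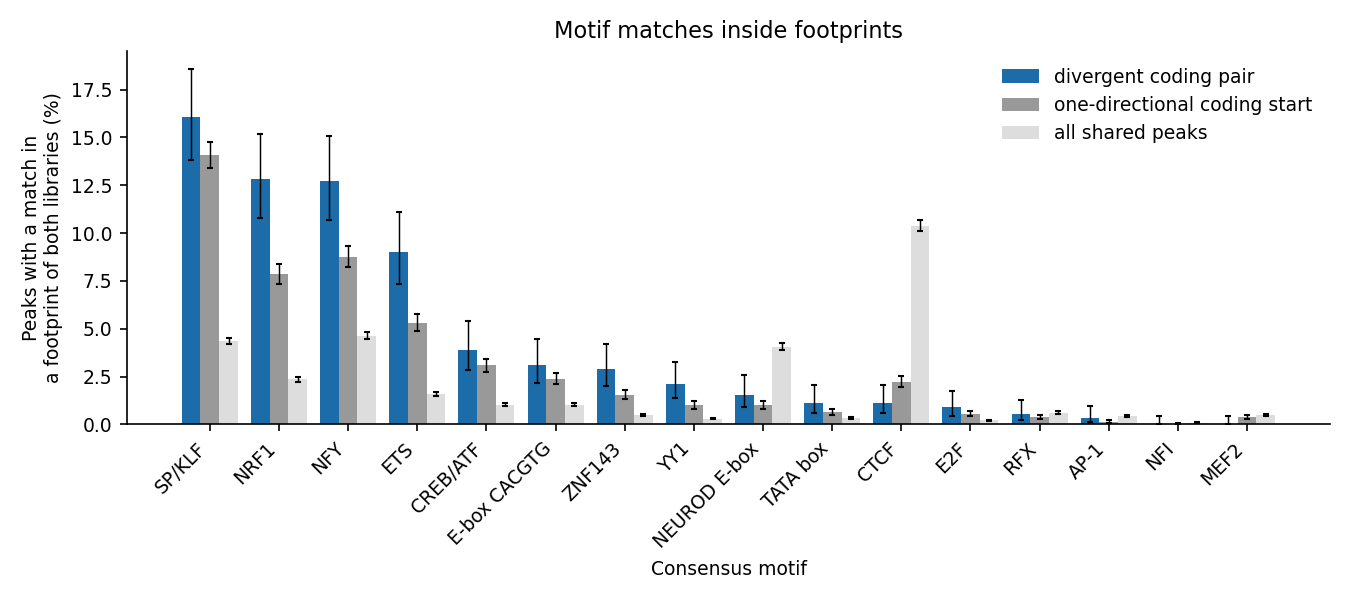
Share of peaks with a motif match that overlaps a footprint of both libraries, for 16 consensus motifs, at divergent coding pairs (blue), one-directional starts (grey) and all shared peaks (light grey), with 95% Wilson intervals. NRF1 (12.8% against 7.85%) and NFY (12.7% against 8.75%) are higher at divergent coding pairs than at one-directional starts, and CTCF is highest over all shared peaks (10.4%).

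Peaks with some motifs were stronger than those without. With CCAAT in the window the median signal was 3.91 in replicate 1 and 5.72 in replicate 2, against 2.36 and 3.46 without it. With NRF1 letters it was 3.54 and 5.40, against 2.64 and 3.88. SP and KLF letters went with little difference, at 2.94 and 4.57 against 2.81 and 4.07. With CREB and ATF letters the median signal was 3.98 and 5.70, against 2.78 and 4.07 without them. The 35 peaks with a footprinted CREB and ATF match had 4.43 and 6.92. Footprint number rose with signal across the peaks (rho = 0.72), so this value is not specific to the motif.

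Housekeeping lists held many pair genes. Of 105 DNA replication and repair genes, 29 were in divergent pairs (27.6%, where 6.78% of all coding genes were), and 28 of these were in open pairs, as were 1366 of all 1487 pair genes (91.9%). Atm/Npat, the DNA damage kinase and a regulator of histone gene transcription, had 5.73 in replicate 1 and 10.1 in replicate 2. Mcm4/Prkdc, a subunit of the replicative helicase and the kinase of end joining, had 5.63 and 9.59. The weakest in this list was Rad54l/Pomgnt1, with 1.32 and 1.88. These lists were drawn up with earlier results of these data known.

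Mitochondrial genes were similar. Of 78 genes of the mitochondrial ribosome, 18 were in divergent pairs (23.1%) and all 18 were in open pairs, where 91.9% of all pair genes were, from Mrps18b/Ppp1r10 with 6.70 in replicate 1 and 10.9 in replicate 2 to Zfp661/Mrps5 with 0.927 and 1.96. Mrpl49/Fau, which joins a mitochondrial to a cytosolic ribosomal protein gene, had 5.80 and 9.37. Of 46 respiratory complex I genes, subunits and assembly factors, 13 were in pairs (28.3%) and all 13 were in open pairs. Tepsin/Ndufaf8 had 6.66 and 8.28, Wdr4/Ndufv3 had 5.06 and 8.56, and Ndufa1/Rnf113a1 on the X chromosome was lowest with 1.30 and 1.46.

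In the lists for protein and RNA handling, all pair genes but 1 were in open pairs, near the 91.9% of all pair genes. The list of 78 chaperones had 14 pair genes (17.9%, where 6.78% of all coding genes were in pairs), all in open pairs, led by Hsp90b1/Ttc41 with 7.87 in replicate 1 and 10.4 in replicate 2 and Tecr/Dnajb1 with 5.80 and 10.8. Hspa1a/Hspa1l, the stress-inducible heat shock gene beside a relative, had 1.18 and 1.35. The spliceosome list had 11 of 58 in pairs (19.0%), all open, among them Cdc26/Prpf4 (6.03 and 9.32). The proteasome had 8 of 50 (16.0%), all open, led by Mrpl32/Psma2 (5.19 and 7.75) and Ftsj3/Psmc5 (4.33 and 7.30). The aminoacyl-tRNA synthetases had 5 of 36 (13.9%), all open, among them Mrps12/Sars2 (5.17 and 6.81). The cytosolic ribosome had 8 of 82 (9.76%), nearest to the share of all coding genes, with 7 of them in open pairs, led by Med22/Rpl7a (6.87 and 11.8) and Rpl9/Lias (6.61 and 9.57).

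Neuronal and zinc finger genes were in such pairs no more often than coding genes at large, of which 6.78% were. Of 51 synapse and neuron genes, 2 were pair members (3.92%), both in open pairs: Tmem126b/Dlg2, with the postsynaptic scaffold gene Dlg2, had 5.24 in replicate 1 and 8.44 in replicate 2, and Nlgn2/Tmem256, with the inhibitory synapse adhesion gene Nlgn2, had 5.23 and 7.49. Of 394 zinc finger genes, 20 were pair members (5.08%) and 18 of them were in open pairs, with a wide range. Zfp654/Cggbp1 reached 7.87 and 12.3 and Zfp277/Dock4 reached 6.71 and 10.6, while Zfp942/Zfp943 had 0.823 and 1.16.

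Histone genes made up the largest group of pairs within a list. The annotation held 13 pairs of 2 histone genes, 12 of them on chromosome 13, and all but Hist1h2bh/Hist1h3f pair an H2A with an H2B gene. Of 101 histone genes, 27 were in divergent pairs (26.7%, where 6.78% of all coding genes were). Of these 27 genes, 21 were in open pairs, as were 1366 of all 1487 pair genes. Of the 13 pairs, 10 had a shared peak, where 91.9% of all divergent pairs had one. Signals at the 10 were 2.12 to 5.58 in replicate 1 and 1.80 to 6.63 in replicate 2. Hist1h2an/Hist1h2bp had 5.58 and 6.26 and Hist1h2bf/Hist1h2ad had 4.95 and 6.63. Replicate 1 was the higher library at Hist1h2bh/Hist1h3f (2.86 and 2.27) and Hist1h2ae/Hist1h2bg (2.15 and 1.80), where replicate 2 was higher at 97.2% of all divergent pair peaks. The other 3, Hist1h2bq/Hist1h2ao, Hist1h2ap/Hist1h2br and Hist1h2ba/Hist1h2aa, had no peak in any list. Histone genes have near-identical copies, so the authors' read placement could split or drop their reads, and these values are uncertain.

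Of 13 head-to-head pairs known from textbooks, 6 met the rule. Open were Atm/Npat, Mcm4/Prkdc and Mrps12/Sars2 with the values above, Brca1/Nbr1, with the breast cancer gene Brca1, at 2.18 in replicate 1 and 3.57 in replicate 2, and Wrap53/Trp53, with the p53 gene, at 2.41 and 3.12. Col4a4/Col4a3, basement membrane collagens of the kidney, lens and ear, had no peak in any list. Another 6, among them Surf1/Surf2, Hspd1/Hspe1, Col4a1/Col4a2, Psmb9/Tap1 and Ppat/Paics, had overlapping 5′ ends and so fell outside the rule. All 6 had shared peaks, from 0.754 and 1.68 at Col4a1/Col4a2 to 5.09 and 6.81 at Hspd1/Hspe1. The ends of the remaining pair, the collagen genes Col4a6/Col4a5 on the X chromosome, lay 1309 bp apart, past the limit, and it had no shared peak. Of all 457 coding pairs with overlapping 5′ ends, 408 had a shared peak (89.3%, 86.1 to 91.8), with median signals of 2.30 and 3.28.

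The 61 pairs with no shared peak were poor in CpG. Their median CpG ratio, over the gap and 500 bp on each side, was 0.432, against 0.774 for open pairs. Of pairs with a ratio of at least 0.6, 621 of 635 were open (97.8%), against 72 of 119 below it (60.5%). Of the 61, 11 had a peak in the stricter list of replicate 2 alone, and 43 had no peak in any list of either library. Pairs with no peak in any list included genes known from other organs and genes in broad use. Among them were Klc3/Ckm with the muscle creatine kinase Ckm, Duox2/Duoxa2 with the thyroid oxidase Duox2 and its maturation factor, and Bhmt2/Dmgdh of liver and kidney metabolism, but also Rnf151/Rps2 with the ribosomal protein gene Rps2 and Pinlyp/Xrcc1 with the DNA repair gene Xrcc1. The CpG ratio was only 0.153 at Rnf151/Rps2 and 0.292 at Pinlyp/Xrcc1. Each gene was taken at its outermost annotated 5′ end, and other starts of Rps2 and Xrcc1 were not examined. These 5 pairs were chosen after their values were seen.

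Few pairs with no shared peak were rich in CpG. Hist1h2bq/Hist1h2ao (0.923) and Hist1h2ap/Hist1h2br (0.906) are histone pairs as above. N4bp3/D930048N14Rik (0.803) had no peak in any list. Nek8/Tlcd1 (0.777), with a kinase of the primary cilium, had a peak of 2.06 in replicate 2 and, in the less strict list, 1.17 in replicate 1. Tbc1d16/Ccdc40 (0.718), with an assembly factor of motile cilia, had a peak of 0.834 in the less strict list of replicate 2 alone.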

How the data were processed

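DNase-seq was measured in 2 libraries of left cerebral cortex, 1 group. Per the deposited file descriptions, the authors made 2 peak lists, 1 footprint list and 1 list of positions from the filtered mm10 alignments of 1 library at a time. The aligner and both callers are not given in the sources used here. Peak signal is the authors' deposited value, scaled per library in a way that is likewise not stated there. The deposited footprint p-value was 0.01 throughout, so footprints could not be ranked, and the deposited false discovery rates per position, values of the p-value kind, were used at 0.001 or less.

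The smaller, stricter peak list of each library was used. Replicate 2 signal at a shared peak is that of the highest overlapping peak. The members, gene lists and motifs were chosen with earlier results of these data known. The lists of the mitochondrial and cytosolic ribosome, complex I, proteasome, histones, chaperones, repair, spliceosome and zinc finger genes were matched by symbol pattern. Sequences came from GRCm38.p6 (the mm10 assembly) and genes from GENCODE M21, after a comparison of chromosome names and lengths. Reads were not assigned to parental alleles. The CpG ratio is observed over expected CpG. Pairs named were the 5 peaks with the highest and the 5 with the lowest signal, the 5 shortest and 5 widest gaps, the 5 peaks with the most shared footprints, up to 5 per direction past 2-fold, the 5 pairs without a peak with the most CpG, pairs within a list, and 2 leading members per list. Other names were chosen after their values were seen. Some pairs that this rule takes are not reported here. Intervals are 95% Wilson intervals; no p-value was computed. The overlap and motif steps were checked on simulated data. Tools were Python 3.11.15, pandas 2.3.3, numpy 2.4.6, scipy 1.17.1, pyfaidx 0.9.0.4 and matplotlib 3.10.9. Alternatives were other overlaps, peak lists, windows, gaps, 5′ ends, footprint and motif settings, and each library alone.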

Additional observations from a re-analysis of the deposited data

How the results depend on the processing

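With only 2 libraries in 1 group, spread joins animal and technical variation, and a value is said to move when it differs by more than the SD over the libraries taken alone, for the number of peaks by more than 1.5 times, or for the log2 ratio by more than its interval over peaks. Of 114 alternative values, 55 stayed within these bounds, 59 moved and 0 reversed; the causes were not tested. No paired analysis was possible because there is only 1 group.

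The number of peaks was 1528 with the 5′ ends of all coding transcripts and 1464 with overlapping pairs included, and 965 to 1012 in single libraries. The share of open pairs was 89.1% at a reciprocal overlap of 50%, 90.7% with the stronger 50% of peaks, 93.5% with the larger lists, 93.3% with gaps up to 500 bp, 89.6% with all transcripts and 91.9% to 93.4% in single libraries. The median signal over both libraries was 3.45, and 2.62 to 3.78 in single libraries. The median log2 ratio was -0.42 in steps, an alternative added after seeing the data; it has no value in a single library. The median number of footprints, 3 when found in both libraries, was 2 at a reciprocal overlap of 50% and 4 in each single library.

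The share of peaks with a footprinted motif was 53.7% at the reciprocal overlap, 55.7% with the stronger peaks, 47.8% with the larger lists, 56.5% with windows of 250 bp, 52.6% with the shorter gaps, 46.5% with all transcripts, 47.4% in motif windows of 200 bp, 48.9% with matches inside footprints extended by 5 bp, 53.2% to 53.99% in single libraries and 54.05% in CpG-rich windows, added after seeing the data. The median CpG ratio was 0.859 with the stronger peaks, 0.841 with the larger lists, 0.863 with windows of 250 bp or gaps up to 500 bp, 0.839 with all transcripts, 0.876 in the peak itself and 0.843 to 0.846 in single libraries. The median distance from the middle of the gap, 58.5 bp, was 53 bp at the reciprocal overlap, 51 bp with the stronger peaks, 70.75 bp with the larger lists, 42.5 bp with windows of 250 bp, 48 bp with the shorter gaps, 28 bp with all transcripts and 72.5 to 77.25 bp in single libraries.

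Peaks without footprints were weak, with median signals of 0.664 and 0.803; the part of depth in this was not tested. The total tags per library are not stated, so a pair without a peak was not detectable here, not shown to be closed.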

Other observations

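Divergent pair peaks were spread unevenly over the chromosomes. They made up 2.78% of shared peaks on chromosome 17 (59 peaks) and 0.851% on chromosome 18 (14 peaks), against 1.76% of all. On the X chromosome 13 of 20 pairs were open, with median signals of 1.68 in replicate 1 and 2.61 in replicate 2 over 16 peaks, against 680 of 734 pairs and 2.87 and 4.25 on the autosomes. Median signals were 3.56 and 5.49 over the 23 peaks on chromosome 19, and 3.53 and 5.50 over the 59 on chromosome 17. Genes differ in number and kind between chromosomes, and their part was not tested.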
